A study of Homo sapiens with 24 samples.

Results

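Collagen genes encode the α chains of the triple-helical proteins that give connective tissue and basement membranes their strength. The members were all protein-coding genes of the deposited tables whose symbol reads COL, a number, A and a number, which gave 44 of 58174 genes (19799 of them protein-coding). The rule used no expression value, but the members were chosen with earlier results of these data known. They fall into 11 fibrillar collagens, 8 collagens of basement membranes and 25 others.

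The genes were measured in human cancer cell lines in which IGF2BP1, an RNA-binding protein of the embryo that many tumours make again, was depleted with a pool of siRNAs, to ask which RNAs change when its level falls. Total RNA depleted of ribosomal RNA was sequenced from 4 established lines: A549 (lung adenocarcinoma), ES2 (ovarian clear cell carcinoma), MV3 (amelanotic melanoma) and PANC1 (pancreatic ductal adenocarcinoma). Each line had 3 libraries from cells given a control siRNA (siC) and 3 from cells given the IGF2BP1 siRNA pool (siI1), 24 libraries in 8 groups, which the methods describe as biological replicates. RNA was harvested 72 h after transfection in A549, ES2 and MV3 and 96 h after transfection in PANC1, so that line and time cannot be told apart for PANC1. All groups received an siRNA, so none shows untransfected cells, and each line is a cultured tumour cell population without the fibroblasts that make most collagen in a tissue.

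Collagen chains are made in the endoplasmic reticulum, where prolines and lysines are hydroxylated, trimers fold from the C-terminal end, and large secretory carriers take the procollagen out. Fibrillar collagens (types I, II, III, V, XI, XXIV and XXVII) lose their propeptides outside the cell and assemble into fibrils that lysyl oxidases cross-link. Type IV chains instead form the network of basement membranes, and many of the remaining collagens sit on fibril surfaces, form beaded filaments, anchor epithelia or span the plasma membrane. Carcinoma cells are known to make basement membrane collagen, while cells that have taken on mesenchymal traits can make fibrillar chains as well.

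The targeted mRNA was lower in the knockdown libraries of every line. IGF2BP1 measured 39.8, 39.8 and 39.6 FPKM in the siC libraries and 15.3, 16.4 and 15.2 FPKM in the siI1 libraries in A549 and 13.1, 13.97 and 12.1 FPKM in siC and 4.22, 4.19 and 4.03 in siI1 in ES2. It measured 9.09, 9.64 and 9.06 FPKM in siC and 3.02, 2.95 and 2.77 in siI1 in MV3 and 11.2, 11.3 and 10.98 FPKM in siC and 2.75, 2.87 and 2.71 in siI1 in PANC1. The log2 fold changes were -1.32, -1.55, -1.52 and -1.83 in that order, with no overlap between siC and siI1 in any line. Values are FPKM, reads per kilobase of gene length scaled to library size, and every fold change and standard error (SE) below is a difference between siI1 and siC on the log2(FPKM + 0.5) scale, which understates changes at low levels.

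Libraries of MV3 were deepest, with 15572492 to 20082702 reads in genes, followed by PANC1 (6532175 to 8472851), ES2 (6421764 to 8419467) and A549 (3105215 to 4553326), so a given FPKM rests on fewest reads in A549. Each table was normalised on its own, and levels are set side by side between lines only as a description. In bulk RNA, a change in the number of cells that make a transcript and a change in RNA per cell cannot be told apart. The origin of the lines was only partly visible in their markers. Of the lung markers, NKX2-1, SFTPB and SFTPC were at 0 in A549 and NAPSA was at 0.292 FPKM in siC. The ovarian markers PAX8, WT1 and MUC16 lay under 0.5 FPKM in ES2, and the melanocytic markers MITF, PMEL, MLANA, TYR, SOX10 and S100B lay under 0.5 FPKM in MV3, whose label already calls it amelanotic. Of the pancreatic markers, PDX1 was at 1.70 FPKM in siC of PANC1 and PTF1A at 0. SOX9 was at 18.2 FPKM in siC of PANC1 but was not particular to it, at 22.5 in ES2, 12.1 in MV3 and 8.06 in A549. MUC1 was at 0.857 FPKM in siC of PANC1 and between 0.191 and 0.927 in the other lines. Leukocyte markers were under 0.5 FPKM in every line, and endothelial markers too, except for 1 of 4 in ES2 (CDH5, chosen after its value was seen, at 9.59 FPKM in siC).

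The 2 basement membrane genes with the steepest joint change, COL4A1 and COL4A2, lie head to head on chromosome 13 and are known to be transcribed from a shared promoter region. In RefSeq (GRCh38) their start sites are 127 bases apart, and their windows of 250 bases before to 50 after the start site share 226 bases. The COL4A2 window is printed because both genes start within it. It lies on the plus strand at chr13:110307034-110307333, and capitals mark a CCAAT box (CCAAT) and a GC box (GGGCGG), each searched on both strands.

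COL4A2 promoter: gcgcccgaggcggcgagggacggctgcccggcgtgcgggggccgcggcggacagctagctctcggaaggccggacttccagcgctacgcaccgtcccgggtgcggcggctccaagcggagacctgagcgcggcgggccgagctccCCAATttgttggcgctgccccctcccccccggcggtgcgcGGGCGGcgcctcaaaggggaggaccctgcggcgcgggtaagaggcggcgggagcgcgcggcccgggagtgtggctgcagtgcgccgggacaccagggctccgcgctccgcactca

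The promoter table held 32 of the 44 members. A GC box was found in 56.3% of them and in 44.6% of all 27305 promoters of the table, a CCAAT box in 31.3% and 35.7%, and a TATA box (TATAAA, both strands) in 15.6% and 11.95%. These shares are descriptions of the letters in the windows.

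Members were also read for a feature of their 3′ ends that the choice did not use. MicroRNAs of the miR-29 family are known to bind collagen mRNAs, and all 3 members carry the same seed (bases 2 to 8, in capitals).

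miR-29a: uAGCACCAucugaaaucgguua
miR-29b: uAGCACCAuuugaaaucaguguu
miR-29c: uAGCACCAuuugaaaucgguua

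The matching letters TGGTGCT occurred in the 3′UTR of the canonical transcript (GENCODE release 44, hg38) in 28 of the 44 collagen genes, 63.6%, against 14.1% of 18876 protein-coding genes, at median 3′UTR lengths of 1122 and 1082 bases. The let-7 seed match CTACCTC occurred in 10 of 44, 22.7%, against 9.81%. COL5A1, the gene with the largest rise, had 4 miR-29 matches, and COL1A1, COL4A1, COL4A2 and COL5A2 had 1 each, while COL6A1 and COL12A1 had none. The plan had named the longest annotated 3′UTR instead of the canonical one. In the longest 3′UTR, 26 of the 44 genes held a miR-29 match and COL4A1 held 0. The sites of these genes are shown with the match in capitals, to which the miRNA seeds above are complementary.

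COL5A1 site at chr9:134843328-134843349, plus strand: aactcaatgaaaatTGGTGCTt
COL5A1 site at chr9:134843368-134843389, plus strand: ttgtggctctcttgTGGTGCTa
COL5A1 site at chr9:134843702-134843723, plus strand: ttcctgaatgtttgTGGTGCTa
COL5A1 site at chr9:134844083-134844104, plus strand: agcctgcggggctcTGGTGCTg
COL5A2 site at chr2:189032873-189032894, minus strand: ttttcctttaatgaTGGTGCTa
COL1A1 site at chr17:50184572-50184593, minus strand: ggggagggaatcacTGGTGCTa
COL4A1 site at chr13:110150326-110150347, minus strand: ctaatgtcacaacaTGGTGCTa
COL4A2 site at chr13:110512205-110512226, plus strand: aggaagggccatttTGGTGCTt

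Of the 44 members, A549 had 20 tested, ES2 17, MV3 15 and PANC1 12, meaning that their mean over the 6 libraries reached 0.5 FPKM. A mean of 1 FPKM was reached by 15, 16, 13 and 9 members. No read at all fell on 10 members of the family in A549 and 9 in ES2, and MV3 and PANC1 had 4 and 8 such members. Of the members tested, 3 in A549, 2 in PANC1 and 1 in ES2 had a mean under 0.5 FPKM in 1 of the groups. Only COL5A1, COL5A2, COL6A1, COL6A2, COL16A1 and COL18A1 were tested in all 4 lines, and 20 members were tested in none, with means of at most 0.386 FPKM. COL1A2 and COL3A1, the partners of COL1A1 in most connective tissue fibrils, were among those 20: COL1A2 did not exceed 4 reads in any library and COL3A1 did not exceed 21.

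The lines differed in which collagens dominated their RNA. In siC cells of A549, the summed FPKM of all collagen genes was 511 ± 24.7 (SD, n = 3) and COL4A2 held 21.04% of it. The sum was 199 ± 7.62 in ES2 and 198 ± 5.05 in MV3 (n = 3 each), with COL6A2, a chain of beaded filaments, holding 23.99% and 44.04%. In PANC1 it was 191 ± 8.61 (n = 3), and COL18A1, a basement membrane collagen whose C-terminal fragment is endostatin, held 63.9%. COL4A1 and COL4A2 were at 69.4 and 107 FPKM in A549 siC but at 0 in all 3 siC libraries of MV3, in which no more than 2 reads fell on either gene in any library.

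After knockdown, collagen genes were mostly higher in ES2 and MV3, were mixed in A549, and were lower or not past the threshold in PANC1. In ES2, 11 of 17 tested members were higher and 2 lower at an adjusted p under 0.05 (limma, Benjamini-Hochberg over all genes tested in the line). Of all genes tested in ES2, 10.5% were higher and 13.0% lower. In MV3, 13 of 15 were higher, against 16.3% of all genes, and 0 were lower, against 19.5%. No member was lower at an unadjusted p under 0.05 either (0 of 15), and 0 were lower with limma voom on recovered reads. In A549, 4 of 20 were higher, against 5.93% of all genes, and 1 was lower, against 7.83%. In PANC1, 3 of 12 were lower, against 13.4% of all genes, and 0 were higher, against 11.3%, with 0 higher at an unadjusted p under 0.05 and 0 with voom. The 3 in PANC1 and the 5 in A549 are small counts, and voom gave 7 lower in PANC1 and 5 lower and 7 higher in A549. The median log2 fold change of the members tested was 0.70 in ES2, 0.46 in MV3, 0.02 in A549 and -0.31 in PANC1, beside -0.02, 0.01, -0.01 and -0.04 over all genes tested.

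**Figure D1:**
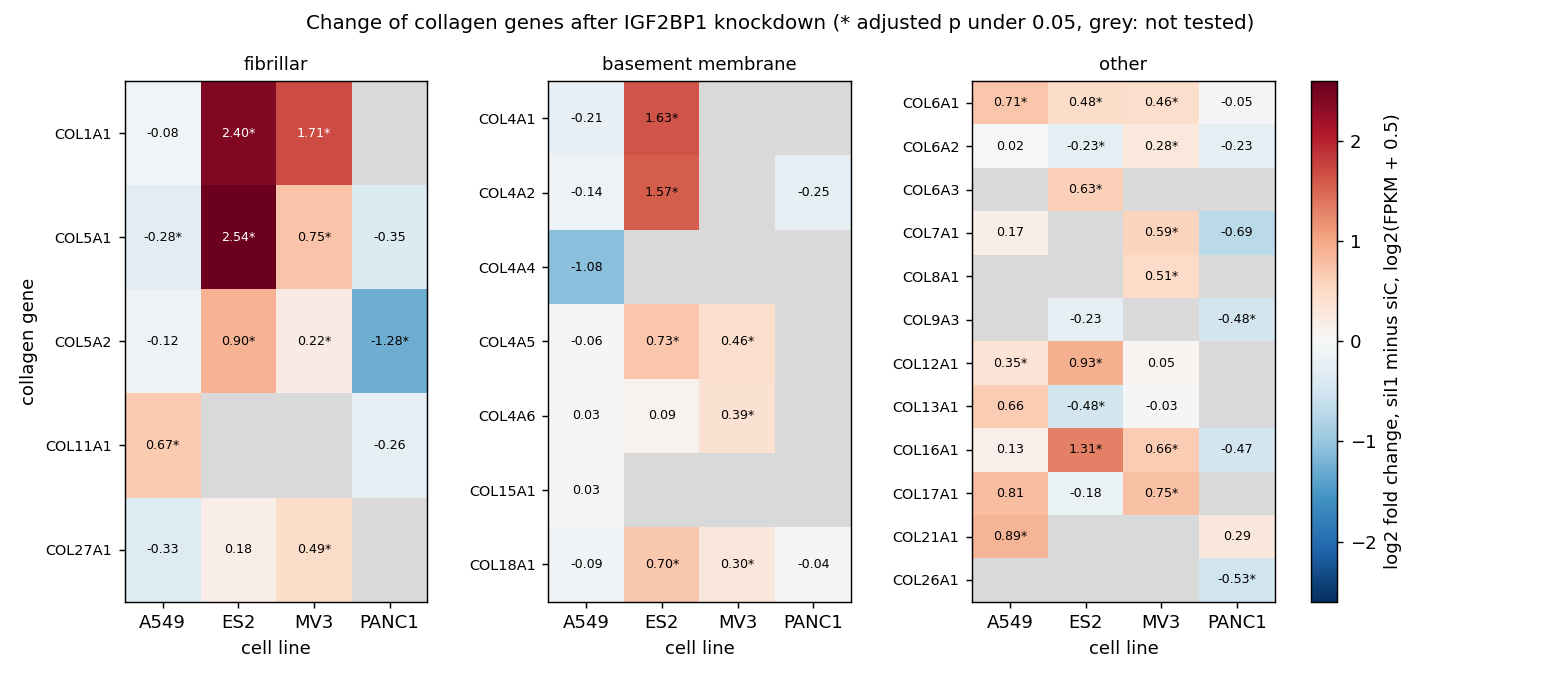
Log2 fold change (siI1 minus siC, log2(FPKM + 0.5)) of the 24 collagen genes tested in at least 1 line, by class (panels) and cell line (columns); red is higher and blue lower after knockdown, an asterisk marks an adjusted p under 0.05, and grey marks a gene not tested in that line. The ES2 and MV3 columns are mostly red, up to 2.54 for COL5A1 in ES2, while 11 of the 12 PANC1 values are below 0.

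The scaling of the libraries mattered most in PANC1. The FPKM of all genes summed to between 526337 and 756438 in its siC libraries and to between 977547 and 1191707 in its siI1 libraries, while in the other lines the sums of both groups overlapped. When each library was rescaled to the same sum, the median of all genes in PANC1 moved from -0.04 to -0.68, with 54.6% of genes then lower and 0.591% higher, and 9 collagen genes were lower. Relative to that shifted median, 10 of the 12 members were lower and 2 higher, and the difference between the median member and all genes was -0.23. In ES2 the same rescaling gave 8.38% of genes lower and 10.5% higher, with 1 collagen gene lower and 11 higher.

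Fibrillar collagens gave the steepest changes of the family, in ES2. All 4 fibrillar genes tested there had a positive fold change and 3 rose. COL5A1, which encodes the α1(V) chain that helps to start collagen fibrils, measured 5.73, 6.12 and 5.97 FPKM in the siC libraries and 39.1, 36.4 and 35.7 FPKM in the siI1 libraries. Every siI1 library lay far above every siC library, a log2 fold change of 2.54 (SE 0.05, adjusted p = 2.83e-05, limma). COL1A1, the α1(I) chain of the main fibril collagen, measured 3.65, 4.35 and 2.77 FPKM in the siC libraries and 25.8, 17.3 and 20.04 FPKM in the siI1 libraries. It rose by 2.40 (SE 0.19, adjusted p = 0.000675, limma), with its highest value in siI1 library 1. COL5A2, the partner chain α2(V), measured 8.44, 8.35 and 9.32 FPKM in the siC libraries and 14.9, 17.3 and 17.8 FPKM in the siI1 libraries. Its change was smaller, 0.90 (SE 0.08, adjusted p = 0.00113, limma), again without overlap. COL27A1, a fibrillar collagen known from cartilage, did not pass the threshold in ES2 (0.18, SE 0.09, adjusted p = 0.217, limma), and its groups overlapped.

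In MV3 all 4 fibrillar genes tested rose, each with no overlap between groups. COL1A1 measured 1.16, 1.30 and 1.21 FPKM in the siC libraries and 4.84, 5.13 and 5.41 FPKM in the siI1 libraries, a log2 fold change of 1.71 (SE 0.07, adjusted p = 8.09e-05, limma). COL5A1 measured 9.69, 9.46 and 9.98 FPKM in siC and 16.7, 16.9 and 16.2 in siI1 and rose by 0.75 (SE 0.04, adjusted p = 0.000113, limma). The replicates of each group differed by less than 1 FPKM for both genes. COL5A2 measured 12.9, 12.4 and 12.1 FPKM in siC and 14.2, 14.7 and 14.8 in siI1, a rise of 0.22 (SE 0.04). COL27A1 measured 1.98, 1.78 and 2.27 FPKM in siC and 2.95, 3.002 and 3.05 in siI1 and rose by 0.49 (SE 0.09). COL1A2, which encodes the α2(I) chain with which the COL1A1 product usually trimerises, gave at most 2 reads per library in ES2 and at most 4 in MV3.

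In PANC1, 1 of the 3 fibrillar genes tested was lower. COL5A2, the most abundant fibrillar transcript of this line, measured 24.7, 22.8 and 28.8 FPKM in the siC libraries and 10.5, 10.3 and 9.62 FPKM in the siI1 libraries. It fell by 1.28 on the log2 scale (SE 0.09, adjusted p = 0.000953, limma), and its highest siI1 library lay at less than 0.5 times its lowest siC library. COL5A1 lay lower in all 3 siI1 libraries too but did not pass the threshold (-0.35, SE 0.14, adjusted p = 0.119, limma), nor did COL11A1, a minor fibrillar chain that co-assembles in cartilage (-0.26, SE 0.09, adjusted p = 0.0902, limma).

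A549 had the highest summed FPKM of fibrillar genes, and of 5 tested 1 was higher and 1 lower. COL11A1 measured 14.2, 14.3 and 15.0 FPKM in the siC libraries and 22.9, 24.5 and 22.7 FPKM in the siI1 libraries and rose by 0.67 (SE 0.06, adjusted p = 0.00173, limma), without overlap. COL5A1 measured 54.7, 56.5 and 62.6 FPKM in siC and 47.6, 47.5 and 47.3 in siI1. It was lower by -0.28 (SE 0.06, adjusted p = 0.0286, limma), and this call was lost without siC library 2 or without any 1 of siI1 libraries 1, 2 and 3 (adjusted p between 0.0623 and 0.0888). COL5A2 went from 91.4 ± 2.62 to 83.99 ± 7.41 FPKM (SD, n = 3 libraries) and did not pass the threshold (adjusted p = 0.327, limma).

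**Figure D2:**
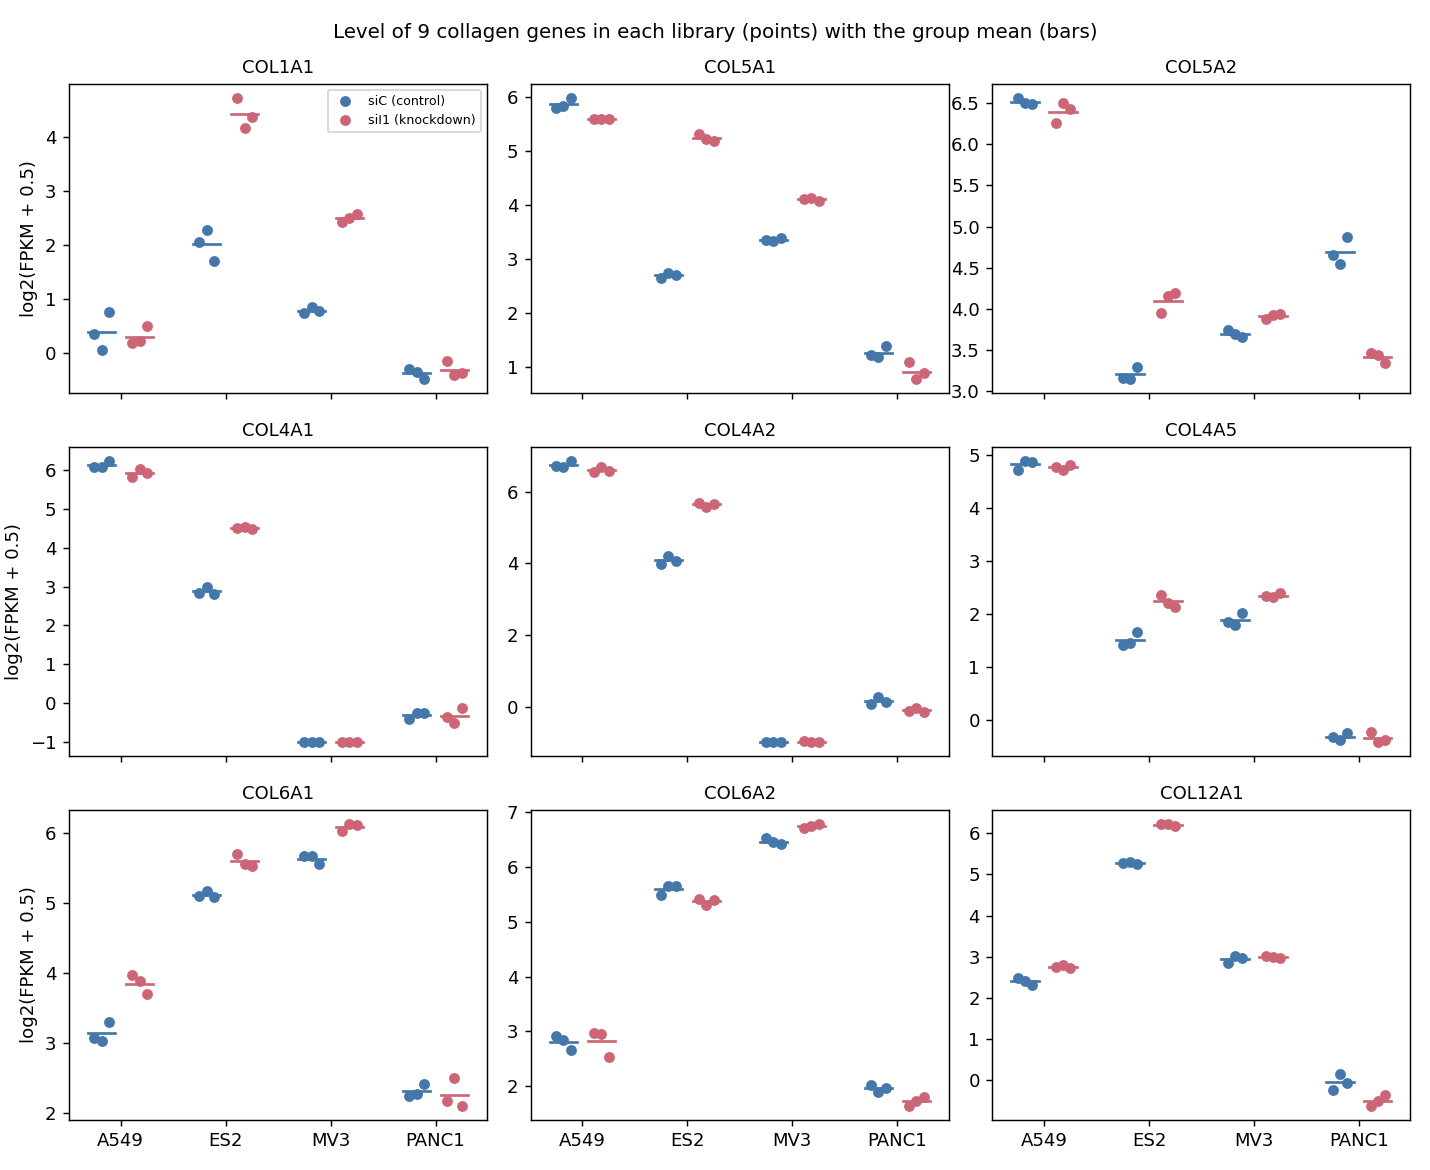
Level of 9 collagen genes in each library as log2(FPKM + 0.5) on the vertical axis, by cell line on the horizontal axis; points are the 3 siC (blue) and 3 siI1 (red) libraries of a line and bars their mean, and vertical axes differ between panels. COL1A1, COL5A1, COL4A1 and COL4A2 in ES2 show siI1 points well above siC points, COL5A2 falls in PANC1, and COL4A1 and COL4A2 sit at the bottom of the scale in MV3.

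Basement membrane collagens rose in ES2 and MV3. In ES2, 4 of the 5 genes tested rose and 0 fell (limma; 0 lower at an unadjusted p under 0.05 and 0 with voom). COL4A1, the α1(IV) chain found in nearly all basement membranes, measured 6.60, 7.45 and 6.54 FPKM in the siC libraries and 22.2, 22.6 and 21.9 FPKM in the siI1 libraries. COL4A2, its α2(IV) partner from the promoter region shown above, measured 15.3, 17.9 and 16.2 FPKM in siC and 51.2, 47.3 and 50.4 in siI1. Both rose by similar amounts, 1.63 (SE 0.06, adjusted p = 8.85e-05, limma) and 1.57 (SE 0.07, adjusted p = 0.000105, limma). COL4A5, the α5(IV) chain of more restricted basement membranes, measured 2.16, 2.25 and 2.65 FPKM in siC and 4.65, 4.14 and 3.87 in siI1 and rose by 0.73 (SE 0.11). COL18A1 measured 8.31, 8.58 and 8.24 FPKM in siC and 14.3, 12.7 and 14.7 in siI1, a rise of 0.70 (SE 0.07). COL4A6, which shares its promoter region with COL4A5 (start sites 380 bases apart), did not pass the threshold in ES2 (0.09, SE 0.14, adjusted p = 0.694, limma).

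In MV3, where COL4A1 and COL4A2 gave almost no reads, the 3 basement membrane genes tested all rose. COL4A5 measured 3.08, 2.96 and 3.56 FPKM in siC and 4.53, 4.49 and 4.73 in siI1 and rose by 0.46 (SE 0.07). COL18A1 measured 4.09, 3.72 and 4.17 FPKM in siC and 4.90, 4.99 and 5.22 in siI1 and rose by 0.30 (SE 0.06). COL4A6 measured 1.52, 1.74 and 1.92 FPKM in siC and 2.41, 2.44 and 2.38 in siI1. Its rise of 0.39 (SE 0.09, adjusted p = 0.0163, limma) missed the threshold without siI1 library 1 (adjusted p = 0.0513) or siI1 library 2 (adjusted p = 0.0555).

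In A549 and PANC1 no basement membrane gene passed the threshold with limma. A549 had 7 of the 8 tested, with 2 lower and 0 higher at an unadjusted p under 0.05 and 3 lower and 0 higher with voom. COL4A1 went from 69.4 ± 4.21 to 60.03 ± 3.83 FPKM (SD, n = 3 libraries; adjusted p = 0.107, limma), and COL4A2 from 107 ± 7.11 to 97.3 ± 4.89 FPKM (adjusted p = 0.220, limma). COL4A4, a kidney-associated α4(IV) chain, measured 0.892, 1.143 and 0.599 FPKM in the siC libraries and 0.0942, 0.200 and 0.143 FPKM in the siI1 libraries. The groups did not overlap, but 3 to 45 reads per library stood behind these values and the change of -1.08 (SE 0.35) gave an adjusted p of 0.101 with limma. COL4A4 reached the level for testing in A549 only through its siC libraries. In PANC1, COL18A1 went from 122 ± 3.33 to 118 ± 5.07 FPKM (SD, n = 3 libraries), with overlapping groups. Neither gene tested in PANC1 was past an unadjusted p of 0.05 in either direction or called with voom.

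The remaining collagens changed in a more mixed way. Of 8 tested in each of A549, ES2 and MV3, 3, 4 and 6 rose and 2 fell in ES2, and of 7 tested in PANC1, 2 fell. Type VI collagen forms beaded filaments around cells from α1, α2 and α3 chains. COL6A1 rose in 3 lines. In A549 it measured 7.94, 7.67 and 9.39 FPKM in the siC libraries and 15.1, 14.3 and 12.5 FPKM in the siI1 libraries, a rise of 0.71 (SE 0.11, adjusted p = 0.0101, limma). In ES2 it measured 33.8, 35.6 and 33.5 FPKM in siC and 51.5, 46.6 and 45.8 in siI1, a rise of 0.48 (SE 0.06). In MV3 it measured 50.5, 50.4 and 46.7 FPKM in siC and 65.1, 69.3 and 68.8 in siI1, a rise of 0.46 (SE 0.04). Groups did not overlap in these lines, while in PANC1 they did (-0.05, SE 0.12, adjusted p = 0.805, limma). COL6A2, its neighbour on chromosome 21, was called in MV3 and ES2. In MV3 it measured 91.1, 86.6 and 84.4 FPKM in siC and 103, 106 and 109 in siI1 and rose by 0.28 (SE 0.04). In ES2 it measured 44.3, 49.4 and 49.9 FPKM in siC and 41.9, 38.8 and 41.8 in siI1 and was lower by -0.23 (SE 0.06, adjusted p = 0.0443, limma). That ES2 call was lost without siC library 2 or 3 or any 1 siI1 library (adjusted p between 0.0817 and 0.125). COL6A3 was tested in ES2 alone, measured 1.76, 1.68 and 1.65 FPKM in siC and 3.27, 2.47 and 2.996 in siI1 and rose by 0.63 (SE 0.12), a call lost without siI1 library 3 (adjusted p = 0.0560, limma).

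Of the 3 collagens with interrupted triple helices tested in ES2, which sit on the surface of fibrils, 2 rose. COL12A1, the most abundant collagen transcript of ES2 after knockdown, measured 38.1, 38.6 and 37.6 FPKM in the siC libraries and 73.7, 73.8 and 71.9 FPKM in the siI1 libraries. It rose by 0.93 (SE 0.04, adjusted p = 8.85e-05, limma) with a narrow spread in both groups. COL16A1 measured 0.756, 1.10 and 0.867 FPKM in siC and 2.88, 3.26 and 2.80 in siI1, a rise of 1.31 (SE 0.14). In MV3, COL16A1 lay between 0.475 and 0.642 FPKM in siC and between 1.09 and 1.23 in siI1 and rose by 0.66 (SE 0.13), whereas COL12A1 did not pass the threshold (0.05, SE 0.05, adjusted p = 0.538, limma). In A549, COL21A1 measured 1.07, 1.42 and 1.29 FPKM in siC and 2.37, 2.83 and 3.07 in siI1 and rose by 0.89 (SE 0.17, adjusted p = 0.0213, limma). COL12A1 measured 5.13, 4.83 and 4.46 FPKM in siC and 6.25, 6.48 and 6.08 in siI1 there, a rise of 0.35 (SE 0.09, adjusted p = 0.0491, limma). The COL12A1 call was lost whichever of the 6 A549 libraries was left out (adjusted p between 0.0838 and 0.141), and the COL21A1 call without siC library 1 or 3 or siI1 library 2 or 3 (adjusted p between 0.0608 and 0.0772).

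Collagens that anchor epithelia or span the membrane showed single changes. COL17A1, a transmembrane collagen of hemidesmosomes, in MV3 measured 1.71, 1.499 and 1.61 FPKM in the siC libraries and 3.04, 3.12 and 2.98 FPKM in the siI1 libraries and rose by 0.75 (SE 0.07, adjusted p = 0.000653, limma). In A549 its mean was 0.426 FPKM in siC and 1.12 FPKM in siI1 without overlap, a change of 0.81 (SE 0.26) that did not pass (adjusted p = 0.101, limma). There it reached the level for testing only through its siI1 libraries. COL8A1, a short chain of hexagonal networks, was tested in MV3 alone, where it measured 7.47, 6.98 and 7.04 FPKM in siC and 10.2, 10.3 and 10.7 in siI1 and rose by 0.51 (SE 0.04). COL7A1, the anchoring fibril collagen, lay between 0.496 and 0.749 FPKM in siC and between 1.11 and 1.21 in siI1 of MV3 and rose by 0.59 (SE 0.14), a call lost without any 1 of 5 of the libraries (adjusted p between 0.0520 and 0.0633, limma). In PANC1 it ran the other way, with 8.88, 5.60 and 12.3 FPKM in siC and 5.56, 4.19 and 5.56 in siI1, with a wide spread in siC, and the change did not pass (-0.69, SE 0.27, adjusted p = 0.111, limma). COL13A1, another transmembrane collagen, in ES2 measured 15.1, 17.0 and 14.8 FPKM in the siC libraries and 11.5, 10.9 and 10.7 FPKM in the siI1 libraries and was lower by -0.48 (SE 0.07, adjusted p = 0.00457, limma). In MV3 its groups overlapped, with means of 9.66 ± 0.236 and 9.48 ± 0.193 FPKM (SD, n = 3 libraries).

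Besides COL5A2, the genes lower in PANC1 were COL26A1, which is little studied, and COL9A3, a chain of the type IX collagen of cartilage fibrils. COL26A1 measured 4.31, 3.65 and 3.40 FPKM in siC and 2.55, 2.21 and 2.64 in siI1 (-0.53, SE 0.12, adjusted p = 0.0208, limma). COL9A3 measured 4.34, 4.40 and 3.62 FPKM in siC and 2.66, 2.79 and 2.97 in siI1 (-0.48, SE 0.10, adjusted p = 0.0177, limma). Without siC library 1, siI1 library 1 or siI1 library 2, both calls were lost (adjusted p between 0.0542 and 0.0702) and only COL5A2 remained lower.

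Summed over a class, the abundance of collagen RNA moved most in ES2. Its fibrillar sum was 22.1 ± 0.828 FPKM with the control siRNA and 79.7 ± 4.53 FPKM after knockdown (SD, n = 3 libraries), 3.60 times as much. Its basement membrane sum went from 35.6 ± 1.96 to 91.7 ± 2.59 FPKM, 2.58 times, and the sum of the others from 142 ± 4.92 to 182 ± 5.23 FPKM, 1.28 times. In MV3 the same sums rose 1.55, 1.35 and 1.26 times. In PANC1 the fibrillar sum fell from 40.2 ± 4.65 to 21.6 ± 0.391 FPKM, 0.537 times, and the sum of the others from 27.4 ± 3.18 to 19.6 ± 0.554 FPKM, 0.715 times, both without overlap, while the basement membrane sum stood at 0.968 times its siC value. In A549 the whole collagen sum was 511 ± 24.7 FPKM without and 492 ± 20.996 FPKM with the knockdown (exact permutation test, two-sided, p = 0.4, n = 3 against 3). Its basement membrane sum was 270 ± 14.6 FPKM in siC and 247 ± 12.6 FPKM in siI1, and the sum of the others 70.6 ± 6.31 and 85.6 ± 1.33 FPKM, each without overlap between groups. With 3 libraries against 3, the exact permutation test cannot go below p = 0.1, the value that all 3 class sums of ES2 and MV3, the basement membrane and other sums of A549, and the fibrillar and other sums of PANC1 reached.

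**Figure D3:**
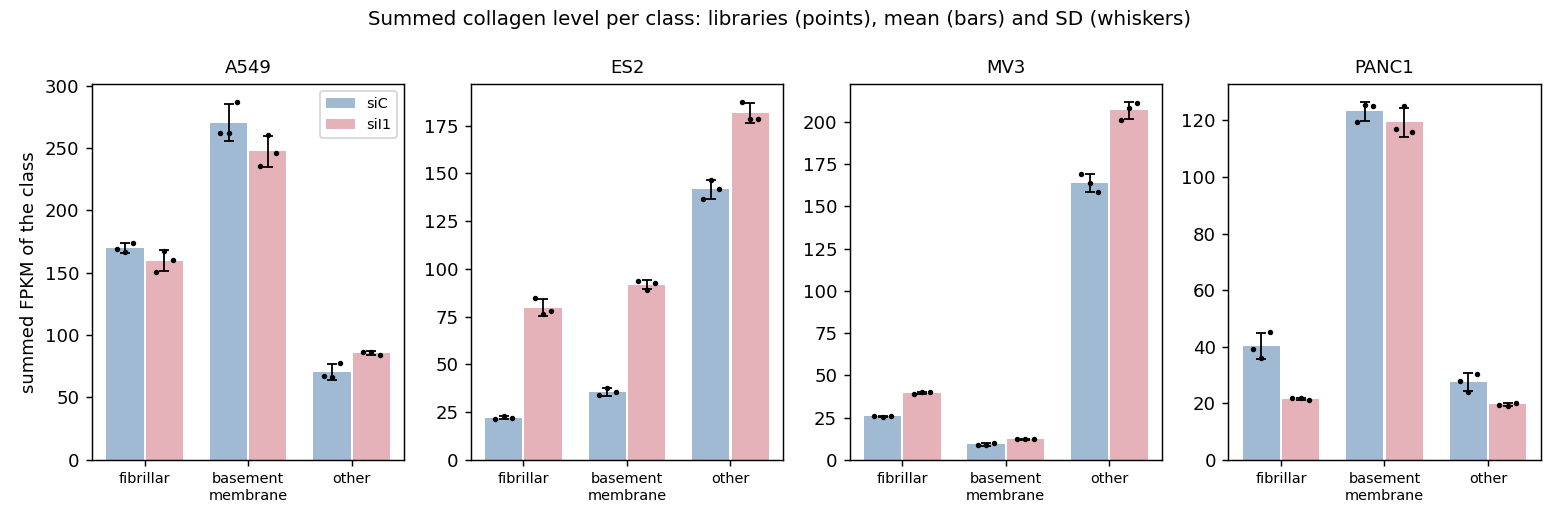
Summed FPKM of the collagen genes of each class (horizontal axis) in each cell line (panels, with separate vertical axes starting at 0); points are libraries, bars the mean of 3 siC (blue) or 3 siI1 (red) libraries and whiskers the SD. In ES2 the fibrillar bar rises from 22.1 to 79.7 FPKM, and in PANC1 it falls from 40.2 to 21.6.

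Partner chains that form one trimer did not always move together. The ratio of COL4A2 to COL4A1 in ES2 was 2.31, 2.398 and 2.48 in the siC libraries and 2.30, 2.09 and 2.30 in the siI1 libraries, so the rise of both left their balance almost in place. The ratio of COL5A2 to COL5A1 in ES2 was 1.47, 1.37 and 1.56 in siC and 0.381, 0.473 and 0.499 in siI1, an inversion of which chain had the higher FPKM. It also crossed 1 in MV3, from 1.29 ± 0.0615 to 0.877 ± 0.0330 (SD, n = 3 each). In PANC1 the same ratio fell from 13.4 ± 0.341 to 7.43 ± 1.04, while in A549 the groups overlapped. COL6A2 to COL6A1 was lower after knockdown in 3 lines without overlap, at 1.395 and 0.852 in ES2, 1.78 and 1.57 in MV3 and 0.792 and 0.474 in A549, and overlapped in PANC1. COL4A6 to COL4A5 was lower in ES2, at 0.669 ± 0.0676 and 0.411 ± 0.0981, and overlapped in A549 and MV3. These ratios restate values given above and were not tested separately.

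**Figure D4:**
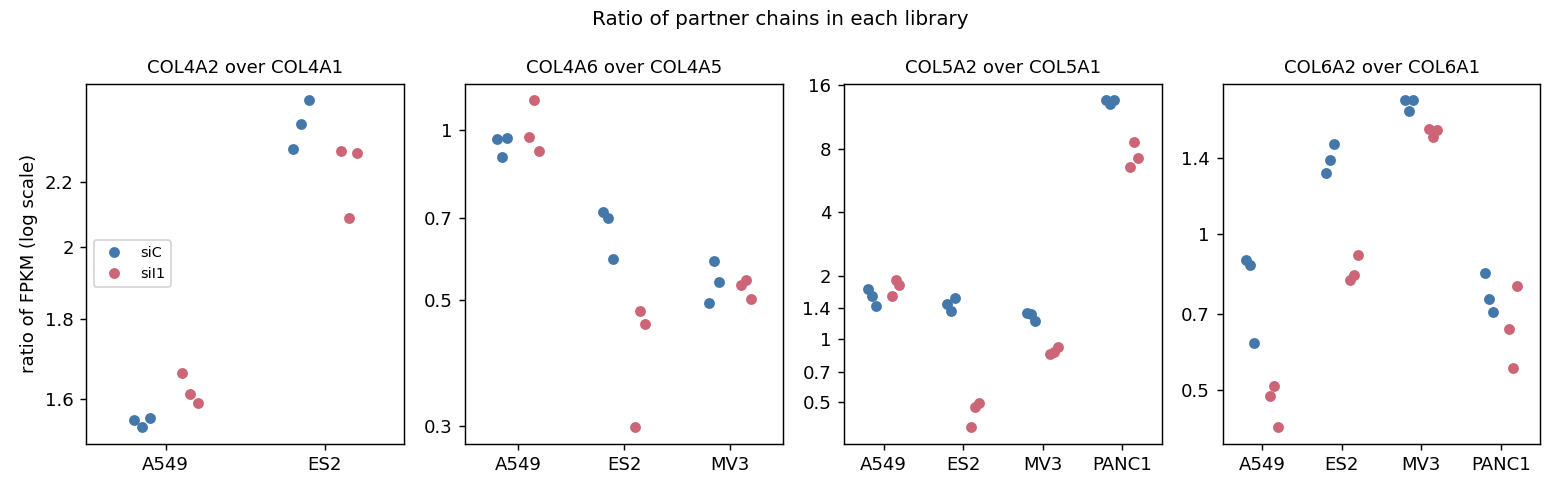
Ratio of the FPKM of 2 partner chains (log scale, vertical axis) in each library, by cell line, for siC (blue) and siI1 (red). The COL5A2 to COL5A1 ratio is below 0.5 in all siI1 libraries of ES2 and above 1.3 in all siC libraries, while COL4A2 to COL4A1 in ES2 stays between 2.09 and 2.48.

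Whether the lines differed in their response was tested with Cochran's Q over the 4 fold changes and their standard errors, adjusted over all genes tested in all lines. Of the 6 members tested in all 4 lines, 5 differed, while 28.0% of all 12816 genes did. COL5A1 ranged from -0.35 in PANC1 to 2.54 in ES2 (adjusted p = 0.00123) and COL5A2 from -1.28 in PANC1 to 0.90 in ES2 (adjusted p = 0.00274). COL18A1 ranged from -0.09 in A549 to 0.70 in ES2 (adjusted p = 0.0103), COL6A2 from -0.23 in PANC1 to 0.28 in MV3 (adjusted p = 0.0148) and COL16A1 from -0.47 in PANC1 to 1.31 in ES2 (adjusted p = 0.0173). In PANC1, COL16A1 averaged 0.697 FPKM in siC and 0.358 FPKM in siI1. It reached the level for testing there, and so a place in this test, only through its siC libraries. COL6A1 did not pass (adjusted p = 0.0561). Extended to genes tested in at least 2 lines, a choice made after the data were seen, 14 of 19 members differed, against 20.7% of 17776 genes. COL4A1 (adjusted p = 0.00163), COL4A2 (adjusted p = 0.00196), COL12A1 (adjusted p = 0.00304) and COL1A1 (adjusted p = 0.0168) were among them, each with its highest change in ES2. COL13A1 and COL17A1 were among them too, but reached the level for testing in A549 only through siI1. Their means there were 0.278 and 0.426 FPKM in siC and 0.731 and 1.12 in siI1. Each had its highest change in A549 (0.66 and 0.81), so the filter had a part in these differences. COL4A2 was tested in PANC1 only through its siC libraries. Of these 19 members, 8 were higher in at least 2 lines, against 9.06% of the 17776 genes, and 0 were lower in at least 2, against 13.0% (limma in each line). COL5A1 and COL5A2 were higher in ES2 and MV3 and lower in A549 and in PANC1, respectively, and COL6A2 was higher in MV3 and lower in ES2, so that 3 members were called in both directions, against 4.82% of the genes. The lower calls of COL5A1 and COL6A2 are those lost without single libraries, as given above. Of the members tested in both lines of a pair, 11 of 13 had the same sign in ES2 and MV3, beside 67.4% of all genes tested in both. The counts were 7 of 14 in A549 and MV3 (60.2% of all genes), 5 of 10 in A549 and PANC1 (60.3%), 4 of 15 in A549 and ES2 (60.6%), 2 of 8 in ES2 and PANC1 (55.2%) and 0 of 7 in MV3 and PANC1 (60.0%). These sign counts include members that reached the level for testing through 1 group only. They are COL13A1 and COL17A1 in A549, COL9A3 in ES2, and COL4A2 and COL16A1 in PANC1. Their sign follows the group that carried them over the level. The lines do not share control libraries.

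Genes that hydroxylate, fold, export, process or bind collagen were followed as 4 lists of 51 genes in all. Of those tested, 26 of 43 were higher and 2 lower in ES2, 22 of 38 higher and 8 lower in MV3, 8 of 39 higher and 5 lower in A549, and 2 of 35 higher and 8 lower in PANC1. The shares of all genes given above for each line apply here as well. In MV3, 14 were higher without siI1 library 2 or 3, and in PANC1, 4 were lower without siC library 1 or 2 or siI1 library 1 or 3. The 2 lower genes of ES2 were P4HB and ITGA10, a collagen-binding integrin chain known from cartilage (-0.77, SE 0.20), and the ITGA10 call was lost whichever library was left out (adjusted p between 0.0855 and 0.116, limma). Of the list genes tested, 3 in A549, 3 in ES2 and 1 in PANC1 had a mean under 0.5 FPKM in 1 of the groups and reached the level for testing through the other, among them ITGA10 and ITGA11 in ES2 and CREB3L1 in PANC1. Of the 2 higher genes of PANC1, 1 was higher without siC library 1 or siI1 library 1, and 3 were higher without siC library 2. After rescaling to the same sum, 29 of the PANC1 genes were lower (limma) and the 2 higher genes, P3H2 and LARP6, had negative changes.

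The hydroxylases that prepare the chains split. P4HB, protein disulfide isomerase and the β subunit of prolyl 4-hydroxylase, was lower in all 4 lines. Its steepest fall was in A549 (125 ± 5.42 to 76.8 ± 1.58 FPKM, -0.70, SE 0.05) and its shallowest in MV3 (60.9 ± 1.88 to 47.4 ± 2.61 FPKM, -0.36, SE 0.05). P4HA1, a catalytic α subunit of the same enzyme, was higher in A549 (27.1 ± 1.33 to 59.1 ± 1.94 FPKM), in ES2 (29.9 ± 2.54 to 60.7 ± 1.44 FPKM) and in MV3 (28.5 ± 0.750 to 35.1 ± 1.54 FPKM). P4HA2, the other main α subunit, was the largest fall of the lists in MV3 (-0.58, SE 0.08). P3H2, which hydroxylates prolines of basement membrane collagen at another position, was higher by 1.27 in ES2, 0.66 in A549, 0.29 in PANC1 and 0.26 in MV3. In PANC1 the P3H2 call was lost without siC library 1 or siI1 library 1 (adjusted p = 0.0715 and 0.0603, limma), and after rescaling to the same sum the change was -0.45 (adjusted p = 0.0527, limma). PLOD2, the lysyl hydroxylase of the telopeptides, measured 60.7, 63.9 and 57.4 FPKM in the siC libraries and 172, 184 and 189.9 FPKM in the siI1 libraries in A549. Its rise of 1.58 (SE 0.06) was the largest of the lists in A549, it was also higher in ES2 (1.13) and MV3 (0.60), and it was lower in PANC1 (-0.22, SE 0.06, adjusted p = 0.0457, limma). The PANC1 call of PLOD2 was lost whichever library was left out (adjusted p between 0.0505 and 0.121).

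Among folding and export genes, 8 of 13 were higher in ES2, 7 of 12 were higher and 3 lower in MV3, 2 of 13 were lower in A549, and 1 of 12 was higher and 3 lower in PANC1. Of all genes tested, 10.5% were higher and 13.0% lower in ES2 and 16.3% and 19.5% in MV3. In A549 these shares were 5.93% and 7.83%, and in PANC1 11.3% and 13.4%. Counts of 1 to 3 genes are not read as a result. CREB3L1, a membrane-bound transcription factor known to activate collagen genes, was the largest fall of the lists in PANC1, with 1.31, 1.16 and 1.18 FPKM in the siC libraries and 0.254, 0.535 and 0.195 FPKM in the siI1 libraries. It changed by -1.07 (SE 0.24, adjusted p = 0.0213, limma) and reached the level for testing only through its siC libraries. Behind the CREB3L1 values stood 5 to 40 reads per library, and the call was lost without any 1 of 5 of the libraries (adjusted p between 0.0520 and 0.0841). LARP6, which binds a stem-loop of type I collagen mRNA, gave the largest rise in PANC1 (7.23 ± 0.245 to 10.5 ± 0.182 FPKM, 0.51, SE 0.06). After rescaling to the same sum, the LARP6 change there was -0.20 (adjusted p = 0.338, limma). Of the genes outside the cell, LOXL2, a lysyl oxidase that cross-links fibrils and type IV networks, was higher in A549 (0.61), ES2 (1.10) and MV3 (0.48) and lower in PANC1 (-0.59). LOXL1 gave the largest rise of the lists in MV3 (7.18 ± 0.347 to 13.7 ± 0.667 FPKM, 0.89, SE 0.05).

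Of the collagen receptors tested, 2 of 6 were higher and 1 lower in A549, 4 of 8 higher and 1 lower in ES2, 4 of 7 higher and 1 lower in MV3, and 1 of 4 lower in PANC1. Over all genes tested, 5.93% were higher and 7.83% lower in A549 and 10.5% and 13.0% in ES2. The shares were 16.3% and 19.5% in MV3 and 11.3% and 13.4% in PANC1. Single calls in so short a list are not read as a result. ITGB1, the β1 chain shared by collagen-binding integrins, was higher in A549 (331 ± 18.5 to 579.7 ± 25.3 FPKM), ES2 (84.5 ± 7.23 to 240.5 ± 8.28 FPKM) and MV3 (129.96 ± 0.852 to 175 ± 5.204 FPKM), and did not pass in PANC1 (0.01, SE 0.06, adjusted p = 0.927, limma). ITGA11, the integrin chain for fibrillar collagen that marks fibroblasts, measured 0.258, 0.196 and 0.281 FPKM in the siC libraries and 2.19, 2.23 and 2.06 FPKM in the siI1 libraries in ES2 and gave the largest rise of the lists there (1.84, SE 0.16). It reached the level for testing in ES2 only through its siI1 libraries. In A549 it gave the largest fall, with 2.595, 3.24 and 3.65 FPKM in siC and 0.915, 1.03 and 1.09 in siI1 (-1.27, SE 0.18). Both changes were without overlap between groups.

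**Figure D5:**
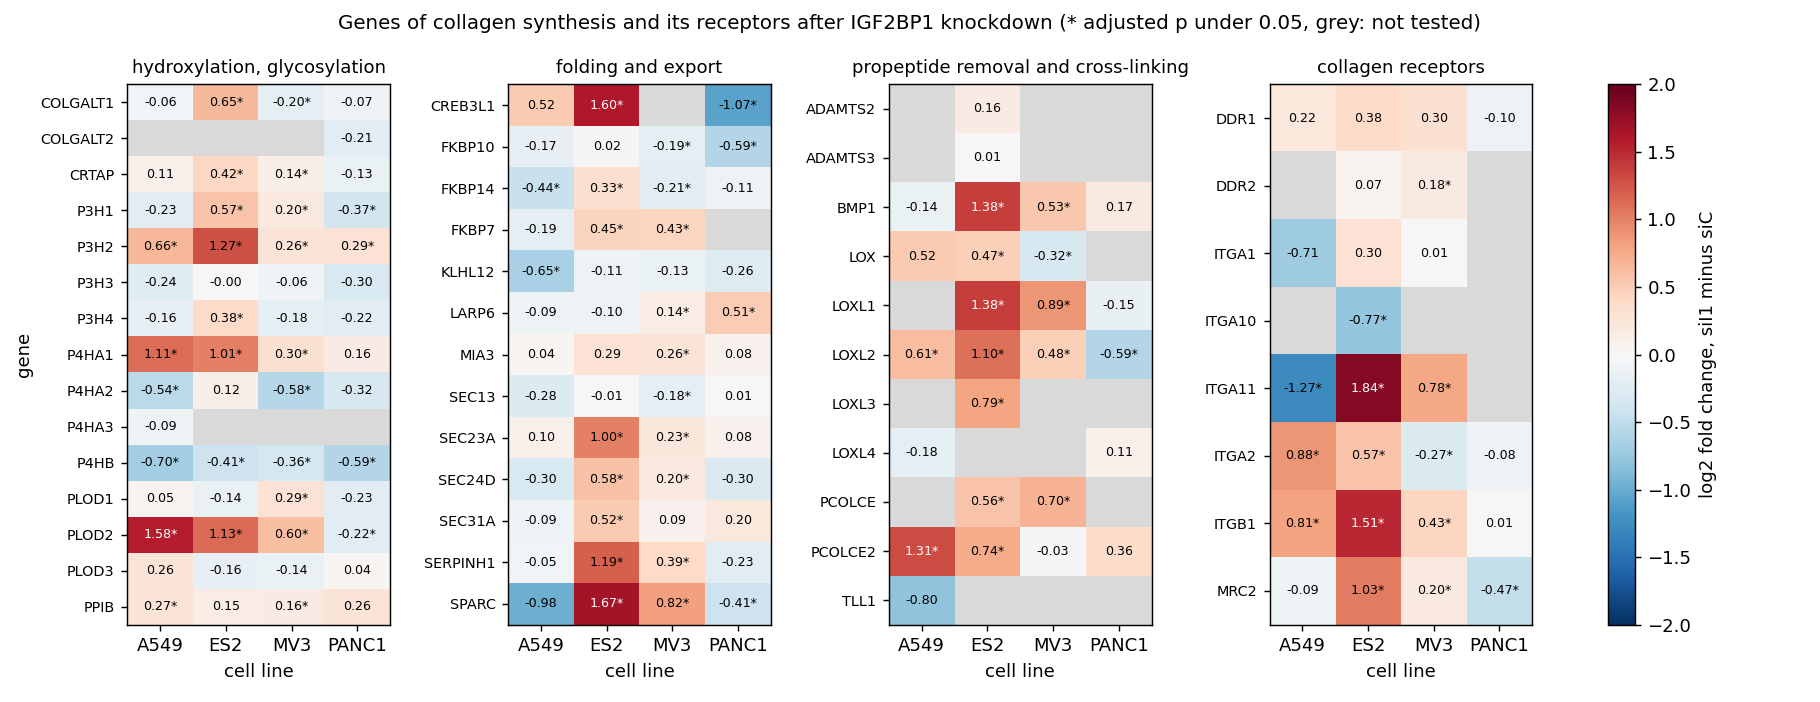
Log2 fold change (siI1 minus siC) of the genes of collagen synthesis and its receptors that were tested in at least 1 line, by list (panels) and cell line (columns), coloured and marked as in the plot of collagen genes. P4HB is blue in all 4 columns and P3H2 red in all 4 (in PANC1 its change was -0.45 after rescaling to the same sum), and the ES2 column holds the most marked red cells.

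Fibroblast markers moved in the same lines as the collagens. In ES2, 4 of the 6 markers (THY1, PDGFRA, PDGFRB and FAP) were higher, of which PDGFRB reached the level for testing only through siI1 (0.147 FPKM in siC and 0.932 in siI1). The summed level of all 6 lay between 15.1 and 17.6 FPKM in siC and between 51.7 and 54.0 in siI1. THY1 held most of that sum, at 11.7 FPKM in siC and 41.7 in siI1. In MV3, 3 of the 6 were higher (PDGFRA, PDGFRB and FAP), with sums between 8.96 and 9.70 FPKM in siC and between 14.1 and 14.8 in siI1. DCN, a defining fibroblast product, was at 0 in every siC library of ES2 and MV3, LUM was at 0 in all ES2 libraries, and COL1A2 gave at most 4 reads per library. In A549, LUM fell from 3.07 to 0.989 FPKM. Of 4 mesenchymal markers, 2 were lower and 1 higher in ES2, 1 was lower in MV3, 2 were lower in A549 and 1 was higher in PANC1. Of 6 epithelial markers, 5 were lower in A549, 2 were higher in ES2, 1 was higher in MV3, and 2 were lower and 2 higher in PANC1. Of all genes tested, 10.5% were higher and 13.0% lower in ES2, and 16.3% and 19.5% in MV3. The same shares were 5.93% and 7.83% in A549 and 11.3% and 13.4% in PANC1. Single calls in a list of 4 or 6 markers are not read as a result. The part of these markers in the collagen changes was not tested.

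Members with a miR-29 match and members without it were set side by side as a description. In ES2, the 11 tested members with a match had a median change of 0.90 and the other 6 one of 0.15, beside 0.02 and -0.05 for all protein-coding genes with and without a match. In MV3 the medians were 0.50 and 0.30 (10 and 5 members), beside -0.01 and -0.03. In A549 they were -0.06 and 0.66 (15 and 5 members), beside -0.06 and -0.03. The 0.66 is the value of COL13A1. COL13A1 and COL17A1, both among those 5, reached the level for testing in A549 only through their siI1 libraries. In PANC1 the medians were -0.31 and -0.26 (8 and 4 members), beside -0.07 and -0.03. These splits used the canonical transcript. With the longest 3′UTR, 9 tested members of ES2 had a match (medians 0.90 with and 0.15 without), and each line kept its order. The order of the medians was thus not the same in all lines, and miR-29 itself was not analysed here.

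Some members share exonic bases with another annotated gene, 14 of 44 in GENCODE, of which 11 with a gene on the opposite strand. The longest such overlap among the genes described is that of COL18A1 with SLC19A1, 1563 bases, and the other genes described above share at most 155 bases. Whether reads were counted by strand is not given in the sources used here.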

How the data were processed

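The authors sequenced total RNA depleted of ribosomal RNA, clipped reads with Cutadapt 1.14, aligned them to hg38 with HISAT2 2.1.0, counted them per gene with featureCounts 1.5.3 and tested each line with edgeR 3.30.3. The deposited tables, 1 per line, hold FPKM per library and 58174 genes. The unit was read from the values: multiplied by gene length, 100% of them were whole multiples of a fixed step per library (tolerance 0.02), which also gave the reads. The tables also hold the authors' own fold change, p-value and FDR per gene, which were not used.

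FPKM were transformed to log2(FPKM + 0.5), and every gene whose 6 libraries of a line averaged 0.5 FPKM or more entered a limma fit (3.58.1, R 4.3.3; lmFit, eBayes with trend, two-sided, siI1 against siC, no covariate). P-values were adjusted by Benjamini-Hochberg over that line's genes, and 0.05 was the threshold. The fit was tested on simulated data, in which wrong calls fell mainly on genes with few reads. The simulated spread between replicates was set to the same value for every gene and line. It was not taken from these libraries, so the simulation does not show how often calls are wrong at their real spread. No collagen gene past the threshold had a mean under 20 reads per library. Cochran's Q over the 4 fold changes, referred to an F distribution, served for differences between lines. Replicates of a group differed by more than sampling noise (chi-square per gene 1.54 to 15.1) and were counted separately. Intervals of FPKM are SD over 3 libraries.

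The members, their classes and all gene lists were chosen with earlier results of these data known. Library values are given for members that passed the threshold and averaged 1 FPKM or more in that line, and for a few others, such as COL4A4 in A549 and COL7A1 in PANC1, chosen after their values were seen. Genes of the synthesis and receptor lists are named where they changed in the same direction in at least 3 lines or gave the largest rise or fall of a line. Promoters and miRNAs are RefSeq (GRCh38) and 3′UTRs and gene overlaps GENCODE release 44. Other tools were Python 3.11.15, matplotlib 3.10.9, scipy 1.17.1, pandas 2.3.3 and numpy 2.4.6. The alternatives were other pseudocounts, filters and scaling, limma voom on the recovered reads, the replicate number as a block, and each library left out.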

Additional observations from a re-analysis of the deposited data

Results flagged for a closer look

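The change after knockdown differed between the 4 lines for 5 of the 6 collagen genes tested in all of them (Cochran's Q, Benjamini-Hochberg over 12816 genes). The adjusted p was 0.00123 for COL5A1, which was higher in ES2 and MV3 and lower in A549, a call lost without siC library 2 or any 1 siI1 library, and 0.00274 for COL5A2, which was higher in ES2 and MV3 and lower in PANC1. It was 0.0103 for COL18A1, higher in ES2 and MV3. It was 0.0148 for COL6A2, higher in MV3 and lower in ES2, where the call was lost without any 1 of 5 of the 6 libraries. It was 0.0173 for COL16A1, higher in ES2 and MV3, which in PANC1 reached the level for testing only through its siC libraries. PANC1 was harvested at 96 h and the other lines at 72 h, and the part of time in these differences cannot be told apart from that of the line.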

How the results depend on the processing

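Every called collagen gene (34 changes) and every called synthesis and receptor gene (81 changes) was followed under each alternative that tested it. None of the 34 reversed, and of the 81 only P3H2 and LARP6 in PANC1 did, at -0.45 and -0.20 after rescaling to the same sum. Counts of collagen genes lower and higher, as reported, were 1 and 4 in A549, 2 and 11 in ES2, 0 and 13 in MV3 and 3 and 0 in PANC1. With 1 library left out they were 0 to 1 and 2 to 3 in A549, 1 to 2 and 10 to 11 in ES2, 0 and 11 to 13 in MV3, and 1 to 4 and 0 in PANC1. The medians then lay between -0.034 and 0.072, 0.66 and 0.74, 0.42 and 0.49, and -0.40 and -0.27. For synthesis and receptor genes the lower and higher counts ran from 4 to 4 and 7 to 8 in A549, 1 to 1 and 24 to 26 in ES2, 6 to 9 and 14 to 19 in MV3, and 4 to 6 and 1 to 3 in PANC1. Without a filter on low values, 2 collagen genes were higher in A549 and 1 lower in ES2, the medians were 0.057 in ES2, 0.076 in MV3 and -0.087 in PANC1, 5 synthesis and receptor genes were lower in PANC1, and 14 members differed between lines, as did 14 of those tested in at least 2 lines. A mean of at least 1 FPKM left 1 synthesis and receptor gene lower in ES2. With pseudocount 0.1 the medians were 0.51 in MV3 and -0.43 in PANC1, and with pseudocount 1 the MV3 median was 0.41. Rescaled to the same sum, 1 collagen gene and 1 synthesis and receptor gene were lower in ES2, and in PANC1 these were 9 and 29, with 0 synthesis and receptor genes higher and a median of -0.91. With voom, 5 collagen genes were lower and 7 higher and 9 synthesis and receptor genes lower in A549, 7 collagen genes lower and 4 synthesis and receptor genes higher in PANC1, and the median was 0.77 in ES2, 0.52 in MV3 and -0.47 for PANC1. The test with edgeR on recovered reads was not run, and voom took its place, chosen after seeing the data. The replicate numbers did not pair the samples (correlation of same-numbered libraries between -0.056 and 0.071). With the replicate block, 0 collagen genes were lower and 1 higher in A549 and 1 lower in ES2, and of the synthesis and receptor genes 1 was lower in ES2, 13 were higher in MV3, and 4 were lower and 1 higher in PANC1. The cause was not tested, except that no filter and fewer libraries change the genes or libraries in the fit by construction. Of the 72 changes of called collagen genes, IGF2BP1 and named list genes, 57 of 432 fits without 1 library lost the call. Depth limits A549 most, at 3105215 to 4553326 reads per library.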

Other observations

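Some collagen genes under the level for testing had values that did not overlap between groups. Of 24 such untested genes in A549, 0 lay higher and 1 lower in siI1, of 27 in ES2 2 and 3, of 29 in MV3 8 and 0, and of 32 in PANC1 1 and 6. The same share over all untested genes of a line is not given here. These counts therefore have no baseline and are not read as a direction of the family. The 6 with the highest group mean are given here without a test and were chosen after their values were seen. COL5A3, a further chain of type V collagen, was at 0 in all siC libraries of ES2 and at 0.409, 0.308 and 0.298 FPKM in siI1, with at most 21 reads. In PANC1, COL27A1 was at 0.775, 0.496 and 0.477 FPKM in siC and at 0.261, 0.1902 and 0.259 in siI1, and COL12A1 at 0.345, 0.612 and 0.458 and at 0.152, 0.200 and 0.278. COL3A1, a fibrillar chain of soft tissue, was at 0.387, 0.276 and 0.367 FPKM in siC of PANC1 and at 0.0430, 0.146 and 0.139 in siI1, with 2 to 21 reads. COL8A2, a chain of hexagonal networks, was at 0.268, 0.478 and 0.255 FPKM in siC of PANC1 and at 0.125, 0.214 and 0.202 in siI1. In A549, COL4A3, an α3(IV) chain, lay between 0.275 and 0.349 FPKM in siC and between 0.0681 and 0.121 in siI1.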
